A study of Mus musculus with 6 samples.

Results

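Chemokine receptors are G protein-coupled receptors of the cell surface that read gradients of small secreted proteins, the chemokines, and steer moving cells along them. In the thymus they guide precursors through the cortex and then draw positively selected thymocytes into the medulla, where tolerance is imposed before export. Other members of the family mark effector, follicular and regulatory T cells and direct them to inflamed tissue, lymphoid follicles or barrier surfaces. The 10 receptor genes described here are Ccr2, Ccr4, Ccr6, Ccr7, Ccr8, Ccr9, Cxcr3, Cxcr4, Cxcr5 and Cxcr6. They were chosen by symbol, each had 1 probe set (the group of array probes that reports a gene), and all 10 are among the 19938 genes tested.

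RNA came from CD4 single-positive thymocytes on a C57BL/6 background, thymic T cells that carry the co-receptor CD4 without CD8. Male Rag1 knockout recipients, 8 weeks old, which make no mature T or B cells of their own, were lethally irradiated. They were rebuilt with equal parts of lineage-depleted bone marrow from 8-week-old male Bach2 knockout (Ly5.1-) and wildtype (Ly5.1+) donors. Thymocytes were sorted from these mixed chimeras 2 months after transfer by Ly5.1, a variant of CD45, the product of Ptprc. The groups were 3 wildtype Ly5.1+ and 3 Bach2 knockout Ly5.1- samples, described as biological replicates from separate mice. The Ly5.1 allele went together with genotype, and neither the deleted part of Bach2 nor the Ly5 allele of the recipients is stated. Bach2 is a basic leucine zipper factor that represses transcription, and the comparison asks which transcripts differ with its loss inside the thymocytes themselves.

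The arrays gave log2 values after normalization, with array medians of 4.93 to 4.97, and correlated at 0.981 to 0.991 over all 35556 probe sets. Wildtype replicates 1 to 3 had Bach2 at 7.89, 8.20 and 8.05 and knockout replicates at 6.50, 6.42 and 6.52, so the targeted gene followed the labels (limma, adjusted p = 0.000156). The sorted cell type was checked against 7 measured CD4 T cell markers, which included Cd4 and Cd3e. All 7 were above 4.94, the median of all values on the arrays, and their mean ranged from 10.64 to 10.73 in wildtype and from 10.69 to 10.73 in knockout arrays. Probe sets of different genes bind with different strength, so values are compared here between arrays and not between receptors. In sorted cells measured in bulk, fewer cells that express a gene and less RNA per cell cannot be told apart.

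Of the 10 receptors, Ccr4 rose and Cxcr3 fell in the knockout thymocytes, and the other 8 did not pass an adjusted p of 0.05 over all genes (limma, Benjamini-Hochberg). Over all genes tested, 0.351% passed as higher and 0.216% as lower, 0.567% in all. The 3 knockout values lay wholly above the 3 wildtype values for Ccr4 and Ccr9, where 5.13% of all genes did so, and wholly below them for Ccr6, Ccr7, Ccr8 and Cxcr3, where 6.57% did so (11.7% for either direction). An unadjusted p under 0.05 was reached by 5 of the 10 receptors (Ccr4, Ccr6, Ccr8, Ccr9 and Cxcr3) and by 6.91% of all genes. The receptors were chosen with earlier results of these data known, so these shares are no test of the group. Differences ran from -1.42 for Cxcr3 to 1.65 for Ccr4 on the log2 scale. The median over the 10 receptors was -0.19, and over all genes it was -0.01. Differences were above 0 for 4 receptors and below 0 for 6, and for 9204 and 10734 of all 19938 genes.

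**Figure D1:**
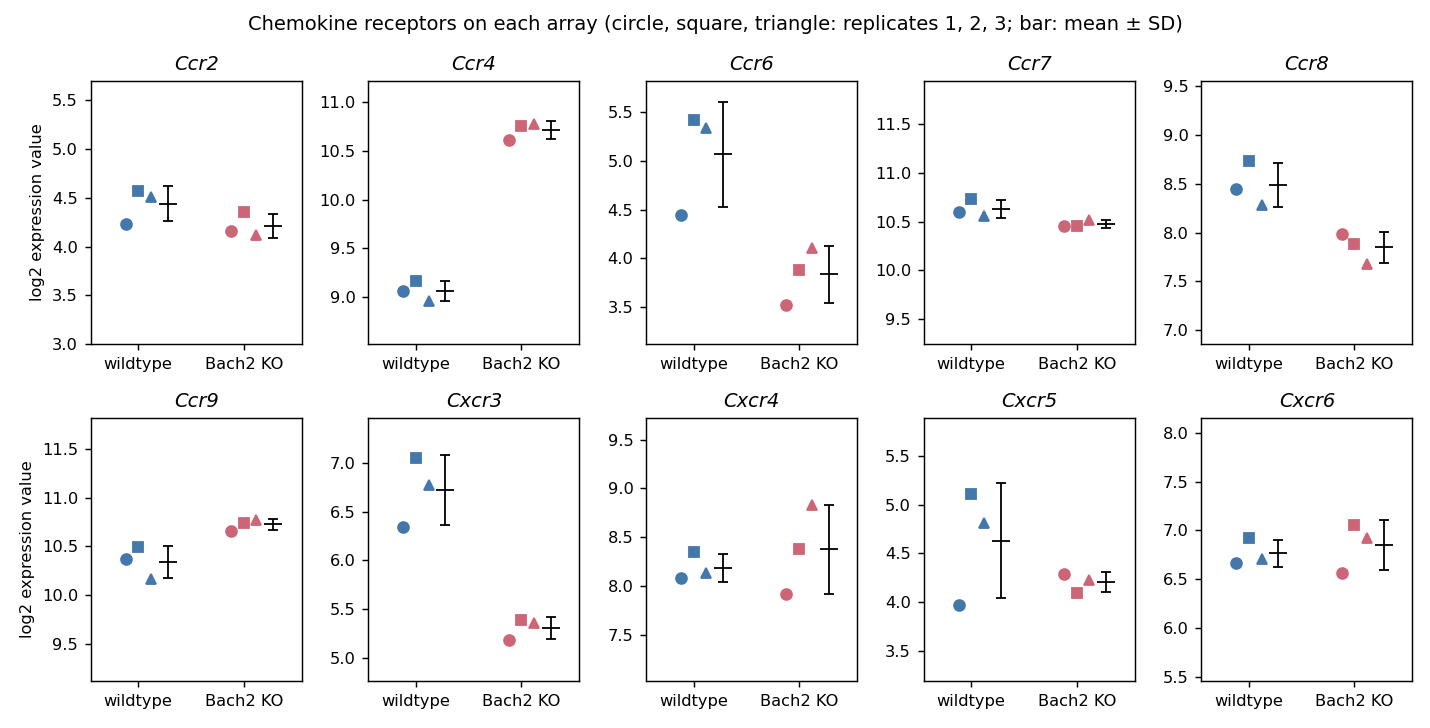
Log2 expression values of the 10 chemokine receptors on each array, wildtype in blue and Bach2 knockout in red, with a circle, a square and a triangle for replicates 1, 2 and 3 and a black bar for the mean ± SD (n = 3). Ccr4 is separated upward by 1.45 and Cxcr3 downward by 0.96 between the nearest values of the groups, and wildtype replicate 1 lies below the other wildtype arrays for Ccr6, Cxcr3 and Cxcr5.

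The receptors of thymic migration were taken first. Ccr4 binds Ccl17 and Ccl22 and is one of the receptors that thymocytes acquire after positive selection, when they begin to enter the medulla. Ccr4 was at 9.07, 9.16 and 8.96 in wildtype and at 10.61, 10.76 and 10.77 in knockout arrays. Every knockout array was far above every wildtype array, and the spread within either genotype was small. Wildtype cells averaged 9.06 ± 0.10 and knockout cells 10.71 ± 0.09 (SD over 3 arrays), a 3.14-fold rise with a 95% confidence interval of 2.70-fold to 3.66-fold (limma, adjusted p = 8.07e-05). This was the 6th largest rise of all genes tested. Its difference was 1.60 to 1.70 when each array was left out in turn, and it passed in all 6 of those fits. A linear model that did not borrow information on spread from other genes gave an adjusted p = 0.0955, as it did for Bach2 itself.

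Bach2 pairs with small Maf proteins on DNA elements built around a core that AP-1 factors also bind. The 250 bases before the annotated start of each receptor were therefore searched for that core, TGAGTCA, on both strands (TGACTCA is the same site read from the other strand). The sequences of Ccr4 and Cxcr3, the receptors that rose and fell, are shown 5′ to 3′ on the strand of the gene, with any core in capitals. They are from RefSeq for build GRCm38.p6, at chr9:114496545-114496794 (minus strand) for Ccr4 and chrX:101734148-101734397 (minus strand) for Cxcr3.
Ccr4: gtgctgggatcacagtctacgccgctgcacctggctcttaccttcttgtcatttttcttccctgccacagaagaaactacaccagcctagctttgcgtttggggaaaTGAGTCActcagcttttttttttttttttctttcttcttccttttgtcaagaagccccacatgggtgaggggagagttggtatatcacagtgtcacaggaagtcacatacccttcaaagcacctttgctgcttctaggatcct
Cxcr3: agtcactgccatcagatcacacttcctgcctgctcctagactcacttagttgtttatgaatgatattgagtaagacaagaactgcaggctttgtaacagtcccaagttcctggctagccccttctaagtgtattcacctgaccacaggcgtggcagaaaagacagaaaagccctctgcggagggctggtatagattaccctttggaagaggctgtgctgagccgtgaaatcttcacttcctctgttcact
Ccr4 held 1 core, whose first base lies 143 bases before the start, and Cxcr3 held none. The core was in 1 of 9 windows of the 8 receptors that matched the table, all but Ccr7 and Cxcr5, and in 4.46% of all 32851 windows of this length. A match describes the letters in this window and not binding.

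Ccr7, the receptor for Ccl19 and Ccl21 that draws thymocytes into the medulla and later into lymph nodes, was at 10.60, 10.74 and 10.56 in wildtype and at 10.45, 10.46 and 10.52 in knockout arrays. The groups did not overlap, but the gap between them was 0.04. The difference of -0.15 did not pass (limma, adjusted p = 0.887). Its 95% confidence interval, unadjusted for the number of genes, ran from -0.36 to 0.06. Ccr4 and Ccr7 both act in entry to the medulla. Their intervals, 1.43 to 1.87 for Ccr4 on the log2 scale against -0.36 to 0.06 for Ccr7, did not overlap, and the difference between the genes was not tested.

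Ccr9, the receptor for Ccl25 made by thymic epithelium and later by small intestine, was at 10.37, 10.49 and 10.17 in wildtype and at 10.66, 10.74 and 10.77 in knockout arrays. All 3 knockout arrays were higher, by a difference of 0.38 (95% confidence interval 0.14 to 0.62) that did not pass over all genes (limma, adjusted p = 0.297). With a prior for the spread that followed expression level it passed (adjusted p = 0.0351). The tested gene next to Ccr9 in gene order, Lztfl1, was at 9.58, 9.51 and 9.31 in wildtype and at 10.21, 9.95 and 10.05 in knockout arrays. Lztfl1 rose by 0.61 ± 0.11 (limma standard error, adjusted p = 0.0464). That call was lost in all 6 fits that left out an array, with adjusted p of 0.0562 to 0.196, and when the probe sets of Lztfl1 were averaged (0.0669).

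Ccr9, Cxcr6 and Ccr2 lie in a stretch of chemokine receptor genes. From Lztfl1 through Fyco1, Xcr1, Ccr1, Ccr1l1 and Ccr3 to Ccr2 it held 9 tested genes, and Lztfl1 was the 1 that passed. Over all 10 receptors, the nearest tested gene on either side gave 18 distinct genes that are no member of the group, of which 1 rose, 0 fell and 17 did not pass, at differences of -0.17 to 0.53. The upper end of that range was Tmppe, beside Ccr4. Wildtype arrays had it at 5.94 ± 0.20 and knockout arrays at 6.48 ± 0.16 (SD over 3 arrays; limma, adjusted p = 0.158). Trim71, on the other side of Ccr4, differed by -0.01 (adjusted p = 0.998).

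**Figure D2:**
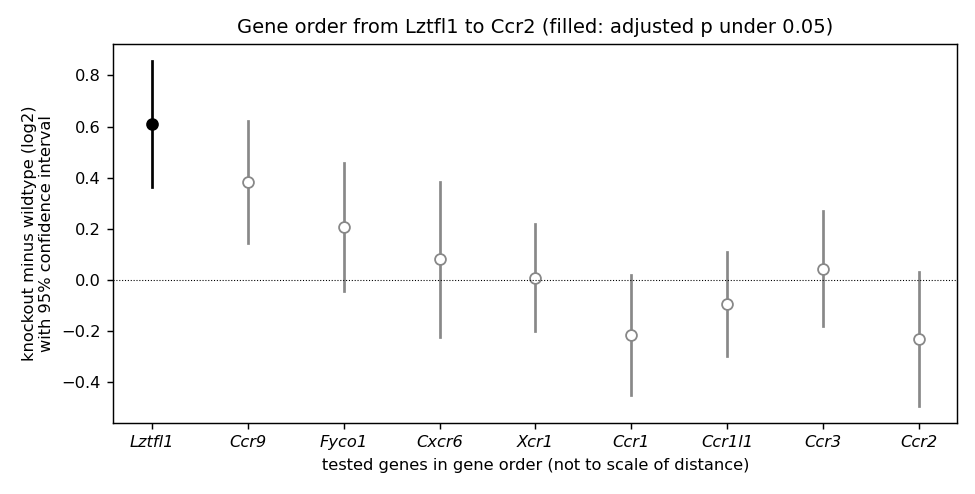
Knockout minus wildtype difference on the log2 scale, with its 95% confidence interval, for the tested genes in gene order from Lztfl1 to Ccr2 (limma, n = 3 each; spacing is not to scale). Lztfl1 at 0.61 is the filled point, Ccr9 beside it is at 0.38, and the intervals of the 7 genes after Ccr9 include 0.

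Cxcr4, the receptor for Cxcl12 that holds immature thymocytes in the cortex, was at 8.08, 8.35 and 8.13 in wildtype and at 7.92, 8.38 and 8.83 in knockout arrays. The knockout arrays spanned the wildtype values, with a difference of 0.19 (95% confidence interval -0.25 to 0.62; limma, adjusted p = 0.979). Its knockout SD of 0.46 was larger than that of 99.5% of genes, and knockout replicate 3 was the highest array. Without that array the difference was -0.04. The mean of markers of double-positive thymocytes, the CD4+ CD8+ stage before the sorted one, was also highest on knockout replicate 3, as were 7 of the 11 measured markers one by one. It ranged from 6.92 to 7.21 in wildtype arrays and was 7.06, 7.45 and 7.91 in knockout replicates 1 to 3. Limma passed 0 of the 11, and 7 had an unadjusted p below 0.05, against 6.91% of all genes. Sox4 (-0.46) and Cd24a (-0.58), named after their values were seen, were highest on wildtype replicate 2. The part of such cells in the Cxcr4 values was not tested. Cxcr4 is also the member nearest to Ptprc, with 109 tested genes between them, so that an allele carried along with the Ly5.1 marker cannot be told apart from genotype.

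The receptors of effector and regulatory cells were taken next. Cxcr3, the receptor for the interferon-induced chemokines Cxcl9, Cxcl10 and Cxcl11 and a mark of type 1 helper and some regulatory T cells, was at 6.34, 7.05 and 6.78 in wildtype and at 5.18, 5.39 and 5.36 in knockout arrays. The lowest wildtype array was 0.96 above the highest knockout array. Wildtype cells averaged 6.72 ± 0.36 and knockout cells 5.31 ± 0.11 (SD over 3 arrays), a 2.67-fold fall, and the 95% confidence interval of the log2 difference was -1.77 to -1.06 (limma, adjusted p = 0.00371). Cxcr3 passed in all 6 fits that left out an array, at differences of -1.61 to -1.25. It did not pass when all probe sets entered the fit (adjusted p = 0.109) or without moderation of the spread (adjusted p = 0.416).

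Ccr6, the receptor for Ccl20 found on type 17 helper cells and on a subset of regulatory T cells, was at 4.44, 5.42 and 5.34 in wildtype and at 3.52, 3.88 and 4.10 in knockout arrays. All 3 knockout values were lower. Wildtype cells averaged 5.06 ± 0.54 and knockout cells 3.83 ± 0.29 (SD over 3 arrays), a difference of -1.23 (95% confidence interval -1.77 to -0.69) that did not pass over all genes (limma, adjusted p = 0.0677). Without wildtype replicate 1 the difference was -1.54 and passed (adjusted p = 0.00274). Ccr6 also passed with a prior that followed expression level (0.0253) and with array weights (0.04). The mean of Ccr6 over the 6 arrays was below the median of all values, as were those of Ccr2 and Cxcr5, and the table holds no detection calls, so the low values may lie near background.

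Ccr8, a receptor for Ccl1 and Ccl8 found on mature CD4 thymocytes, type 2 helper cells and regulatory T cells, was at 8.45, 8.73 and 8.28 in wildtype and at 7.99, 7.88 and 7.68 in knockout arrays. The groups were 0.29 apart at their nearest values. Ccr8 differed by -0.64 (95% confidence interval -0.94 to -0.34) without passing over all genes (limma, adjusted p = 0.0882). It passed with a prior that followed expression level (adjusted p = 0.0256). Ccr4 and Ccr8, both receptors of type 2 helper and regulatory T cells, thus lay on opposite sides of 0, with separated groups in either case.

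Cxcr5, the receptor for Cxcl13 that brings follicular helper T cells and B cells into follicles, was at 3.98, 5.11 and 4.81 in wildtype and at 4.29, 4.10 and 4.23 in knockout arrays. Wildtype replicate 1 was the lowest of all 6 arrays, below every knockout array, and the other wildtype arrays were above them all. The difference of -0.43 (95% confidence interval -0.95 to 0.10) did not pass (limma, adjusted p = 0.847). Without wildtype replicate 1 it was -0.75 and passed (adjusted p = 0.0329), and without wildtype replicate 2 it was -0.19 (adjusted p = 0.768).

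Cxcr6, the receptor for Cxcl16 on natural killer T and effector cells, was at 6.67, 6.92 and 6.71 in wildtype and at 6.56, 7.05 and 6.93 in knockout arrays. The groups overlapped, with a difference of 0.08 (95% confidence interval -0.22 to 0.38; limma, adjusted p = 0.992), and it was -0.02 without knockout replicate 2. Ccr2, the receptor for Ccl2 on monocytes and activated T cells, was at 4.23, 4.57 and 4.51 in wildtype and at 4.16, 4.35 and 4.12 in knockout arrays. These groups overlapped too, with a difference of -0.23 (95% confidence interval -0.49 to 0.03; adjusted p = 0.806).

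**Figure D3:**
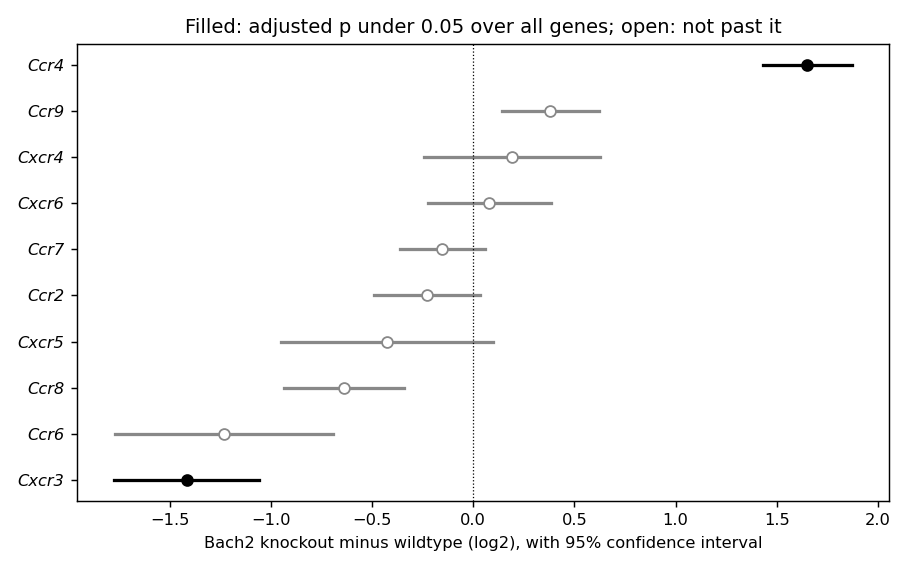
Knockout minus wildtype difference on the log2 scale for each receptor, ordered by size, with its 95% confidence interval from the moderated fit (limma, n = 3 each), unadjusted for the number of genes. Filled points passed over all genes (Ccr4 at 1.65 and Cxcr3 at -1.42); the intervals of Ccr9, Ccr8 and Ccr6 leave out 0 but their adjusted p did not pass.

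Wildtype values varied widely for 3 of these receptors. The wildtype SD of Ccr6 (0.54), Cxcr5 (0.59) and Cxcr3 (0.36) was larger than that of 99.6%, 99.7% and 96.3% of genes. In each case wildtype replicate 1 was the lowest of the 3. It was below the mean of the other wildtype arrays for these 3, with differences of -0.94 for Ccr6, -0.99 for Cxcr5 and -0.57 for Cxcr3, against 0.01 for Ccr4. For Ccr8, whose lowest wildtype value was on replicate 3, that difference was -0.06. For 6 of the 10 receptors the lowest wildtype value was on replicate 1, as it was for 30.0% of all genes.

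Markers of regulatory T cells were set beside these receptors. Foxp3, the factor that defines that lineage, was at 7.30, 8.29 and 8.33 in wildtype and at 5.58, 5.36 and 5.69 in knockout arrays, with a difference of -1.01 between wildtype replicate 1 and the mean of the other wildtype arrays. Of 20 regulatory T cell markers, 18 were lowest on replicate 1 among the wildtype arrays. On wildtype replicates 1 to 3 their mean was 7.19, 7.84 and 7.83, and on the knockout arrays it was 6.89, 6.86 and 6.94. Of the 20, 5 fell in the knockout (Foxp3, Ikzf2, Lrrc32, Nt5e and Il2ra) and 1 rose (Izumo1r), and 19 lay above the median of all values. An unadjusted limma p under 0.05 was reached by 16 of the 20 (6.91% of all genes). Knockout values lay wholly below the wildtype values for 12 and wholly above for 2 (6.57% and 5.13% of all genes). Differences were below 0 for 17 and above for 3: Izumo1r and, named after their values were seen, Gpr83 (0.72) and Icos (0.15). Foxp3 kept its call in all 6 fits that left out an array. The other 5 markers that had passed lost their call without wildtype replicate 3 (limma, adjusted p of 0.0617 for Ikzf2 to 0.196 for Izumo1r), and some without other arrays too. On wildtype replicate 1, Cxcr3 and Ccr6 were 1.04 and 0.61 above the knockout mean, and Cxcr5 differed from it by -0.23. On the same array Foxp3 was 1.76 above its knockout mean, and the mean of the 20 markers was 0.29 above. The part of regulatory T cells in the values of Cxcr3, Ccr6, Ccr8 and Cxcr5 was not tested.

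Marker lists of further cell types were read in the same way. Of 11 macrophage markers 1 rose, the lysozyme Lyz2, from 5.29 ± 0.36 in wildtype to 6.68 ± 0.45 in knockout arrays (SD over 3 arrays; limma, adjusted p = 0.0256). Dropping single arrays ended the call of Lyz2 in 4 of 6 fits, with adjusted p up to 0.153 without wildtype replicate 3. At an unadjusted limma p under 0.05 there were 5 of the 11, against 6.91% of all genes. Of these 5, 3 were higher and 2 lower, and 6 of the 11 were at or below the median of all values. The mean of the list was 4.52 to 4.66 in wildtype and 4.65 to 5.02 in knockout arrays, which overlap. The mean of 7 natural killer T cell markers was 5.23 to 5.32 in wildtype and at most 5.13 in knockout arrays, without overlap. Limma passed 0 of the 7 (2 at an unadjusted p under 0.05), and 5 differences were below 0 and 2 above. The largest in size, -0.76, was that of Il2rb, which is also in the regulatory T cell list. Cd160 differed by -0.44, with all knockout values below the wildtype values. Klrd1 (-0.37), Cd244a (0.14), Zbtb16 (0.03), Tbx21 (-0.04) and Klrb1c (-0.06) had groups that overlapped. The markers besides Il2rb were named after their values were seen. Of the dendritic cell (8), B cell (6) and thymic epithelial (6) markers 0 passed by limma, also at an unadjusted p under 0.05 (0 in each list). The part of these cells in the receptor values was not tested.

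**Figure D4:**
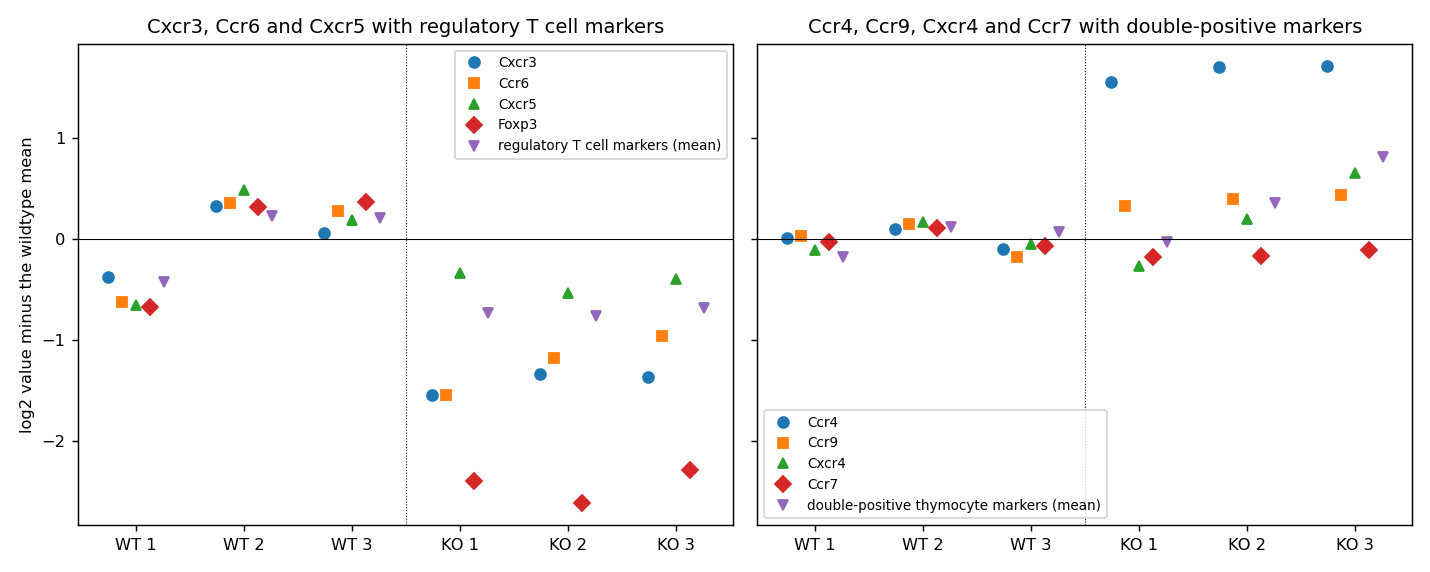
Log2 value minus the wildtype mean on each array, with 1 symbol per gene or marker mean. On the left, Cxcr3, Ccr6, Cxcr5, Foxp3 and the mean of 20 regulatory T cell markers are all lowest on replicate 1 among the wildtype arrays; on the right, Ccr4 is at least 1.45 higher on every knockout array than on any wildtype array, and Cxcr4 and the mean of 11 double-positive markers are highest on knockout replicate 3.

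The genes whose profiles over the 6 arrays were nearest were found by the root-mean-square difference after centring each gene on its mean, among genes above the median of all values. This distance includes the difference between genotypes, so the direction and rough size of a neighbour's change follow from how it was chosen. For Ccr4 these were Il10ra, a chain of the interleukin 10 receptor, at 0.12 log2 units, the long non-coding RNA Mirt1 at 0.13 and Prag1 at 0.14. All 3 rose, by 1.56 ± 0.13, 1.57 ± 0.12 and 1.67 ± 0.14 (limma standard errors). For Cxcr3 they were Ikzf2 (Helios), a factor of regulatory T cells, at 0.13, the phosphatase Dusp4 at 0.16 and Rell1 at 0.16, which fell by 1.51, 1.36 and 1.25. Dropping single arrays ended the call of Dusp4 in 4 of 6 fits (adjusted p up to 0.16), and Ikzf2 lost it without wildtype replicate 3 (0.0617). For Ccr6 they were Itgae, the integrin chain CD103, at 0.07, Dusp4 at 0.08 and the semaphorin receptor Nrp1 at 0.10. Itgae and Nrp1, both markers in the regulatory T cell list, differed by -1.13 and -1.26 without passing (adjusted p = 0.0961 each).

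Further chemokine receptors were examined for comparison. Limma passed 0 of 13 such genes, and 2 had an unadjusted p below 0.05, against 6.91% of all genes. Of the 13, 11 were at or below the median of all values, and the median difference of the 13 was 0.01. The smallest p belonged to Cxcr2, a neutrophil receptor, at -0.32 (adjusted p = 0.493) and to the atypical receptor Ccrl2 at -0.41 (adjusted p = 0.565).

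Among the chemokines, 34 of 36 genes were measured and 0 passed by limma, with a median difference of -0.02. At an unadjusted limma p under 0.05 there were 2 of the 34, against 6.91% of all genes. The Ccr8 ligand Ccl1 differed by -0.38 (95% confidence interval -0.61 to -0.15, adjusted p = 0.261). The Cxcr3 ligand Cxcl10 averaged 5.70 ± 0.66 in wildtype and 6.61 ± 0.25 in knockout arrays (SD over 3 arrays), a difference of 0.91 (0.30 to 1.51, adjusted p = 0.345). It was 0.56 without wildtype replicate 1, the lowest array for Cxcl10, and 1.22 without wildtype replicate 2. The Ccr4 ligands Ccl17 and Ccl22, named beside their receptor after their values were seen, differed by -0.10 (-0.48 to 0.28) and -0.22 (-0.59 to 0.15) and did not pass.

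Downstream of the receptors, 0 of 26 genes for G protein subunits, phosphoinositide 3-kinase and the Rac and Rap machinery of cell movement passed by limma, with a median of -0.02. Of the 26, 3 had an unadjusted limma p under 0.05, against 6.91% of all genes. The smallest p belonged to the GTPase Rhoh (-0.26, adjusted p = 0.578) and the phospholipase Plcb3 (0.27, adjusted p = 0.591). Of 13 measured genes that switch receptors off (RGS proteins, receptor kinases and arrestins), 1 fell, and 2 had an unadjusted limma p under 0.05. Rgs16, which speeds the turning off of G protein signals, was at 7.43, 7.48 and 7.25 in wildtype and at 6.71, 6.55 and 6.50 in knockout arrays, and fell by 0.80 ± 0.10 (limma standard error, adjusted p = 0.00754). It passed in all 6 fits that left out an array, and did not pass with all probe sets in the fit (adjusted p = 0.107) or without moderation (0.313).

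Of 20 measured genes for other migration receptors and adhesion molecules, 1 rose. Gpr183, the oxysterol receptor EBI2 that positions lymphocytes within lymphoid organs, was at 8.74, 8.97 and 8.77 in wildtype and at 9.58, 9.58 and 9.78 in knockout arrays. It rose by 0.81 ± 0.11 (limma standard error, adjusted p = 0.00754), and its call was lost without wildtype replicate 3 (adjusted p = 0.0611), with all probe sets in the fit (0.109) and without moderation (0.32). The other 19 did not pass, at a median of 0.04 over all 20. An unadjusted limma p under 0.05 was reached by 7 of the 20, and by 6.91% of all genes. Knockout values lay wholly above the wildtype values for 4 of the 20 and wholly below for 3 (5.13% and 6.57% of all genes).

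**Figure D5:**
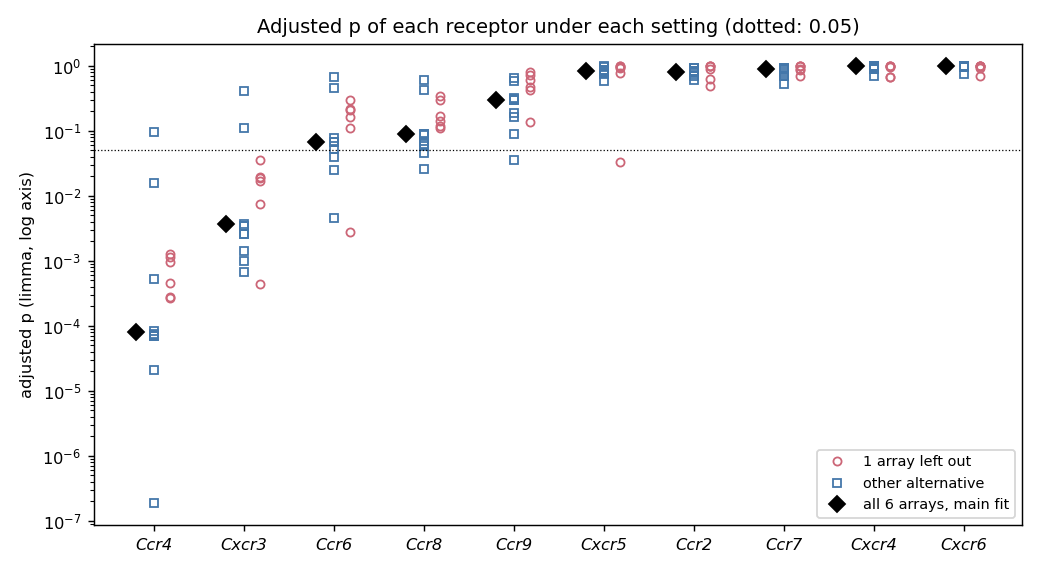
Adjusted p of each receptor's knockout minus wildtype difference (limma, log axis) with all 6 arrays (black diamonds), with 1 array left out (red circles) and under the other alternatives (blue squares), with the threshold of 0.05 dotted. Every fit that left out an array kept Ccr4 and Cxcr3 under the threshold, and Ccr6 and Cxcr5 each had 1 such fit under it.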

How the data were processed

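Values for 35556 probe sets on 6 arrays were used on the log2 scale as deposited by the authors; their range of 1.10 to 13.2 sets the scale, which no label states. RMA and Partek are named, without versions, in the submitters' processing notes. Because RMA equalises the arrays' distributions, a change common to all genes is invisible. Symbols came from the platform's annotation. The 21789 probe sets with 1 symbol were reduced to the one with the highest mean per gene, which left 19938 genes. Differences were fitted with limma 3.58.1 (lmFit, eBayes, two-sided) in R 4.3.3, adjusted by Benjamini-Hochberg over all genes, and the procedure was tested on simulated data. Precision rests on the 3 arrays in each group and on the information on spread that limma borrows from other genes. Gene order came from a RefSeq table of GRCm38.p6. The members and gene lists were chosen with earlier results of these data known. Named genes are the 10 members, Bach2, Ptprc, Foxp3, up to 4 passing genes per list or the 2 with the smallest p, all passing genes of cell marker lists, the 3 nearest profiles and gene-order neighbours. Figures were drawn with matplotlib 3.10.9.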

Additional observations from a re-analysis of the deposited data

How the results depend on the processing

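The sign of each receptor's difference was kept under all alternatives run, except that Cxcr4 ranged from -0.039 (without knockout replicate 3) to 0.419 and Cxcr6 from -0.0225 (without knockout replicate 2) to 0.224 when single arrays were left out. Ptprc, at 0.03 with all arrays, ranged from -0.00933 (without wildtype replicate 1) to 0.0542. Leaving out each array in turn gave 1 receptor higher and 1 to 3 lower, 29 to 82 genes higher and 18 to 66 lower over all genes (70 and 43 with all arrays), and 0 to 2 other migration receptors; the fewest calls over all genes in either direction came without wildtype replicate 3, and 3 receptors were lower without wildtype replicate 1. With all probe sets in the fit, 1 receptor was higher and 0 lower, 29 and 8 probe sets passed over all, and 0 desensitisation genes and 0 other migration receptors passed. Without moderation of the spread 0 receptors passed in either direction (2 and 3 at an unadjusted p under 0.05), 1 gene was higher and 0 lower over all (572 and 708 unadjusted), and 0 desensitisation genes and 0 other migration receptors passed. A prior that followed expression level gave 2 receptors higher and 3 lower, 78 genes lower and 4 other migration receptors, and array weights gave 2 receptors lower. The cause of these changes was not tested. With the replicate number as a block 3 receptors were lower (Cxcr3, Ccr6 at an adjusted p = 0.00452 and Ccr8 at 0.0463) and 2 other migration receptors passed. Deviations of same-numbered arrays correlated over genes at 0.21, 0.11 and -0.07, and knockout replicate 3 correlated best with wildtype replicate 2, so the numbers were not taken as pairs; the labels do not say whether a number marks a shared chimera.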
